A study of Mus musculus with 6 samples.

Results

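The interleukin-2 (IL-2) receptor chains and Stat5 were followed as 5 genes, Il2ra, Il2rb, Il2rg, Stat5a and Stat5b, read by name from a count table of 14098 genes, and all 5 had a row. The cells were single EGFP+ regulatory T (Treg) cells, a T cell lineage that depends on the transcription factor Foxp3 and holds immune responses in check. They came from spleens of C57BL/6 mice 18 to 21 weeks old, all given tamoxifen, and all carrying EGFP-Cre-ERT2, a tamoxifen-inducible Cre recombinase, at Foxp3. Of 6 samples, 3 were cKO (Bach2fl/fl Foxp3EGFP-Cre-ERT2) and 3 were WT (Bach2+/+ Foxp3EGFP-Cre-ERT2). Bach2 is a transcriptional repressor of lymphocytes, the Cre is confined to cells that express Foxp3, and whether animals were pooled is not given in the sources used here. RNA was measured by droplet 3′ sequencing with unique molecular identifiers (UMIs), so that each count is 1 captured RNA molecule.

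Treg cells make little IL-2 of their own and take it up from other T cells through a receptor of 3 chains. Il2ra encodes the alpha chain CD25, which raises the affinity for IL-2 and has long been used to mark Treg cells. Il2rb encodes the beta chain, shared with the IL-15 receptor, and Il2rg the common gamma chain, shared with the receptors for IL-4, IL-7, IL-9, IL-15 and IL-21. The beta and gamma chains signal through the kinases JAK1 and JAK3 to the transcription factors STAT5A and STAT5B, which are known to sustain Foxp3 and Il2ra transcription in Treg cells.

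The upstream sequences of Il2ra and Il2rg are shown because these genes gave the clearest differences between cell states and between sets of cells. Each line has the 250 bases before the transcription start, 5′ to 3′ on the gene's own strand, from RefSeq on GRCm38.p6, Il2ra from chr2:11642542-11642791 on the plus strand and Il2rg from chrX:101268256-101268505 on the minus strand.
Il2ra: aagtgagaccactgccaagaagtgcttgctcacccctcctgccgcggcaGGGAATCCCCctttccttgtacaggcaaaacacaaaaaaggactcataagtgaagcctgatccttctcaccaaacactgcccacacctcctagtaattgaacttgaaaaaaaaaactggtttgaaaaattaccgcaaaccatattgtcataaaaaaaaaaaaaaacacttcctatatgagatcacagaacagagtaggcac
Il2rg: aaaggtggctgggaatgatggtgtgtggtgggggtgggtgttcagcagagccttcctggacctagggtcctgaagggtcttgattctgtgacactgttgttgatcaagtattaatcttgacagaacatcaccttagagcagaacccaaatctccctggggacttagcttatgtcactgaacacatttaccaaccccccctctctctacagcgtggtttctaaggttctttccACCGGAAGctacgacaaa
Capitals mark a match to an NF-kB type motif (GGGA, any base, T, any pair of bases, CC) in Il2ra and to ACCGGAAG, an ETS type motif, in Il2rg. Both motifs were chosen after the sequences had been read. Searched on both strands, they occurred in 4.16% and 2.30% of 32851 promoter windows of 300 bases. The STAT motif TTCNNNGAA (8.30% of windows) and the AP-1 motif TGANTCA (7.81%), which BACH factors also bind, had no match in the 6 windows found for 4 of the 5 genes. A match to letters is a description and not a binding site.

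In the GENCODE annotation of mm10, all 5 genes are protein coding. Il2ra lies on chromosome 2 from 11642807 to 11693193 (plus strand), Il2rb on chromosome 15 from 78479256 to 78495271 (minus strand) and Il2rg on chromosome X from 101264378 to 101268255 (minus strand). Stat5a, on chromosome 11 from 100859351 to 100885169 (plus strand), and Stat5b, from 100780731 to 100850724 (minus strand), are neighbours separated by 8626 bases. The pair are close relatives, but of the 50-base words in the last 500 bases of their transcripts, where a 3′ library reads, 0 of 451 of Stat5b occur in Stat5a and 60 of 1072 (5.60%) of Stat5a occur in Stat5b. The Stat5a end overlaps the convergent Stat3 gene, and Il2rg lies within Gm20489, a gene on the same strand, so the levels of Stat5a and Il2rg are uncertain to the extent that counting split or dropped such reads.

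The cells of the table, 10685 in number, fell into 6 sets by the suffix of their barcodes, and no name tied a set to a sample. The whole table therefore counted as 1 sample, cKO and WT were not compared, and no p-value is given. Every interval is a 95% interval for counting error only. Agreement among the 6 sets is given as a description, because the sets are not known to be replicates. After removal of shallow cells and of cells with markers of other types, 10197 Treg cells with 24661285 UMIs remained, 1587 to 1840 cells per set with a median of 2032 to 2244 UMIs per cell. Levels are CPM, a gene's UMIs per 1000000 UMIs of the same cells. Some 63 barcodes occurred in more than 1 set. After each cell was thinned to 1000 UMIs, the Helios gene Ikzf2, typical of Treg cells, was detected in 59.8% of them and the T cell gene Cd3e in 52.3%. Foxp3 itself had a UMI in only 2.15% (1.88 to 2.45%). It had one in 0 of 90 B-cell-marker cells (0 to 4.02%) and in 2.78% of 72 myeloid-marker cells (0.34 to 9.68%). The Foxp3 share thus did not separate Treg cells from background at this depth.

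Over all Treg cells, Il2ra stood at 105 CPM (101 to 109, from 2589 UMIs), Il2rb at 219.6 (214 to 226), Il2rg at 321 (314 to 328), Stat5a at 32.9 (30.7 to 35.2) and Stat5b at 30.5 (28.4 to 32.8). After thinning to 1000 UMIs, 9.11% of Treg cells had an Il2ra UMI, against 3.33% of 90 B-cell-marker cells (0.69 to 9.43%) and 9.72% of 72 myeloid-marker cells (4.0 to 19.0%). Median depths were 1940.5 UMIs in the B-cell-marker and 2225 in the myeloid-marker cells. Both comparison groups carried T cell RNA, with a Cd3e UMI in 21.1% and 45.8% of cells. The Il2ra share in Treg cells was thus not above that of the myeloid-marker cells and is not read as a share of CD25-expressing cells. Il2rb had a UMI in 19.6% of Treg cells (18.9 to 20.4%), against 6.67% of B-cell-marker cells (2.49 to 13.9%) and 16.7% of myeloid-marker cells (8.92 to 27.3%). Il2rg was detected in 28.2% of Treg cells, against 20% and 20.8% of those groups, whose intervals reach 29.8% and 32.0%. Stat5a was detected in 3.01% of Treg cells, against 0 of 90 B-cell-marker cells (0 to 4.02%) and 2.78% of myeloid-marker cells. Stat5b was detected in 2.85%, against 1.11% and 4.17%, so the shares of both Stat5 genes, of Il2rg and of Il2rb lay within the intervals of the myeloid-marker cells and are not read as expressing cells. Without thinning, the shares in Treg cells were 19.5% for Il2ra, 37.6% for Il2rb, 51.1% for Il2rg, 7.36% for Stat5a and 6.87% for Stat5b.

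Among the receptor chains, Il2rg had the widest range between the sets. The widest of the 5 members was that of Stat5b, which has fewer UMIs. Il2rg stood at 269, 286, 279, 380.0, 355 and 361 CPM in sets 1 to 6. The highest value was 1.41-fold the lowest, and the intervals of those sets lay apart (361 to 399 in set 4 and 255 to 285 in set 1). Of 514 genes with a like number of UMIs, 8.75% had a larger spread. The share of UMIs from ribosomal protein genes, which lowers the CPM of all other genes, was 36.8, 36.7, 37.7, 31.6, 31.7 and 32.2% in the same sets. With totals that left out ribosomal protein and mitochondrial genes, the highest Il2rg level was 1.30-fold the lowest, and with every set given the same mix of states it was 1.39-fold.

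Il2ra stood at 93.2, 101, 94.6, 111, 112 and 119 CPM in sets 1 to 6, a 1.28-fold spread, and 40.8% of genes with like UMIs had a larger one. Il2rb stood at 206, 212, 197, 238, 234 and 233 CPM, a 1.21-fold spread that was 1.1-fold without ribosomal protein and mitochondrial genes. Stat5a stood at 35.4, 29.7, 29.8, 35.8, 28.8 and 37.1 CPM, and the intervals of its highest and lowest sets overlapped. Stat5b stood at 30.7, 23.4, 36.6, 34.3, 29.6 and 28 CPM, with the lowest value in set 2 (18.8 to 28.8) and the highest in set 3 (31.0 to 42.9). This was a 1.56-fold spread with intervals that lay apart, and 18.0% of genes with like UMIs had a larger one. Set 6 had the highest Il2ra and Stat5a levels, set 4 the highest Il2rb and Il2rg levels, and set 3 the highest Stat5b level.

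**Figure D1:**
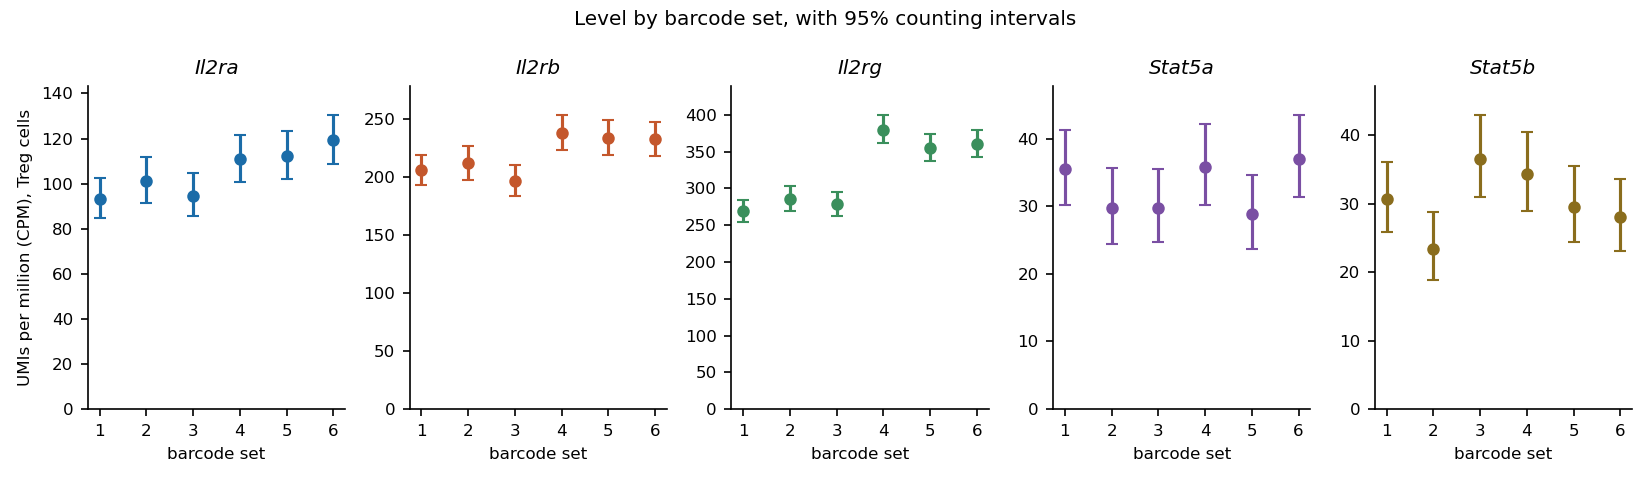
Level of each gene in Treg cells (CPM, vertical axis from 0) in the 6 barcode sets (horizontal axis). Points are summed UMIs with 95% counting intervals. Il2rg runs from 269 to 380.0 CPM and Stat5b from 23.4 to 36.6 CPM.

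Treg cells were then placed in states by marker genes that exclude the 5 members. The T cell receptor (TCR)-stimulated state (markers such as Il1r2, Tnfrsf9 and Nr4a1) held 628 cells, the S100a4 effector state (S100a4, Ccr2, Cxcr6) 1521, the Ccl5 state (Ccl5, Asb2, Maf) 406, the Lrrc32 Gpr83 state 64, and the resting state (Ccr7, Lef1) 1251. A further 5928 cells stood between states. A gene is called higher or lower in a state when it differed from resting cells by 1.5-fold or more with all 6 of 6 sets on the same side. The median gene was itself 0.22, 0.22, 0.21 and 0.04 higher (log2) in the TCR-stimulated, S100a4 effector, Ccl5 and Lrrc32 Gpr83 states. For the 5 members, ratios relative to that median gene are given where they change a call.

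Il2ra RNA was lower in the S100a4 effector and Ccl5 states than in resting cells. It stood at 71.7 CPM in S100a4 effector cells (63.2 to 81.1, from 255 UMIs), with 48.7 as the lowest, 65.8 as the median and 92.8 as the highest of the 6 sets. In resting cells it stood at 122 CPM (111 to 135, from 410 UMIs), with 101 as the lowest, 126 as the median and 151 as the highest. The ranges of the 2 states over the sets did not overlap. The log2 ratio was -0.77 (-1.0 to -0.54), with Il2ra lower in 6 of 6 sets, and 1.07% of the 5783 genes measured were called lower in this comparison. In Ccl5 cells Il2ra stood at 76.5 CPM (59.2 to 97.4, from 66 UMIs), with 13.7, 76.4 and 105 as the lowest, median and highest set, the highest lying within the range of resting cells. The log2 ratio was -0.67 (-1.07 to -0.30), again lower in 6 of 6 sets, where 2.16% of genes were called lower.

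Both calls on Il2ra stood relative to the median gene, at -0.99 in S100a4 effector and -0.88 in Ccl5 cells. Random thinning decides which cells enter a state, and 5 other draws gave -0.82 to -0.53 for S100a4 effector and -0.68 to -0.63 for Ccl5 cells, so that 1 draw left the S100a4 effector ratio short of 1.5-fold. The Ccl5 ratio was -0.39 with 3 markers and -0.37 with thinning to 500 UMIs, also short of 1.5-fold. The 8 myeloid markers summed to 203 CPM in S100a4 effector cells (149 to 258 over the sets) and 192 in Ccl5 cells (96.9 to 228), against 130 in resting cells (103 to 162). Most of this was Cst3. All 8 markers were detected in S100a4 effector cells, whereas Csf1r, a defining myeloid gene, was at 0 in Ccl5 and resting cells. Csf1r had a UMI in only 2 of 72 myeloid-marker cells after thinning, so its absence says little about myeloid RNA. The summed B cell markers stood at 59.9 CPM in S100a4 effector and 54.5 in Ccl5 cells, against 34.3 in resting cells. Leaving out the 1240 cells that carried a UMI of Lyz2, Cd8a, Cd79a or Hbb-bs or were among the 2% with most UMIs, the Il2ra ratios were -0.73 in S100a4 effector and -0.71 in Ccl5 cells. Ribosomal protein genes took 29.9% of UMIs in S100a4 effector, 29.2% in Ccl5 and 38.7% in resting cells, and without ribosomal and mitochondrial genes the ratios were -0.97 and -0.89.

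Il2ra did not differ from resting cells beyond the spread of the sets in the TCR-stimulated or Lrrc32 Gpr83 states. It stood at 111 CPM in TCR-stimulated cells, with 76.8, 108 and 141 as the lowest, median and highest set, and the log2 ratio over resting cells of -0.14 (-0.40 to 0.12) turned to 0.39 when 3 markers were asked for and to 0.38 with thinning to 500 UMIs. The 64 Lrrc32 Gpr83 cells, which carry RNA for the TGF-beta docking protein GARP, had 31 Il2ra UMIs, or 195 CPM (132 to 277), with 73.6, 215 and 277 as the lowest, median and highest set. Their log2 ratio was 0.67 (0.10 to 1.20), higher in only 4 of 6 sets. Among the rare states, Il2ra stood at 113 CPM in 251 interferon cells, 46.6 in 55 cycling cells and 39.4 in 79 follicular cells. Cycling cells, with a median of 7189 UMIs, gave a log2 ratio of -1.39 (-2.10 to -0.76) and were lower in 6 of 6 sets, from only 21 Il2ra UMIs, where 6.47% of genes were called lower. From the highest, the order was Lrrc32 Gpr83, resting, interferon, between, TCR-stimulated, Ccl5, S100a4 effector, cycling and follicular. The intervals of neighbours in this order overlapped throughout.

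Il2rb was higher in Ccl5 cells than in resting cells in plain CPM. It stood at 285 CPM in Ccl5 cells (251 to 323) and at 181 in resting cells (166 to 196), a log2 ratio of 0.66 (0.44 to 0.88), higher in 6 of 6 sets, where 7.23% of genes were called higher. Relative to the median gene the ratio was 0.45 and the call was lost, and 5 other thinning draws gave 0.49 to 0.69, some of them short of 1.5-fold. In TCR-stimulated cells Il2rb stood at 246 CPM, with a log2 ratio over resting cells of 0.45 (0.26 to 0.63), higher in 6 of 6 sets and below 1.5-fold, where 11.8% of genes were called higher. In S100a4 effector cells it stood at 202 CPM, with a ratio of 0.16 whose sign turned relative to the median gene (-0.06), without ribosomal and mitochondrial genes (-0.04) and with thinning to 1500 UMIs (-0.04). The Lrrc32 Gpr83 cells had 321 CPM (239 to 422, from 51 UMIs), a log2 ratio of 0.83 (0.39 to 1.24), higher in 5 of 6 sets. Il2ra and Il2rb thus had ratios of opposite sign in Ccl5 cells, and the intervals of these ratios did not overlap.

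Il2rg had modest ratios in the same states, and in each of these 3 states the ratio was near that of the median gene. It stood at 358 CPM in TCR-stimulated, 367 in S100a4 effector and 359 in Ccl5 cells, against 283 in resting cells. The log2 ratios were 0.34, 0.38 and 0.34, none reaching 1.5-fold, and 0.12, 0.15 and 0.14 relative to the median gene. In Lrrc32 Gpr83 cells Il2rg stood at 283 CPM, a log2 ratio of 0.00 (-0.47 to 0.43).

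Stat5a had its highest level among the larger states in TCR-stimulated cells. It stood at 57.1 CPM there (45.9 to 70.2, from 90 UMIs), against 30.7 in resting cells (25 to 37.2, from 103 UMIs), a log2 ratio of 0.90 (0.47 to 1.32). The direction was shared by 5 of 6 sets, so Stat5a was not called, and 5 other thinning draws gave 0.74 to 1.12. In Ccl5 cells Stat5a met the rule with 46.4 CPM and a log2 ratio of 0.60 (0.03 to 1.14, from 40 UMIs), but 3 of 5 other thinning draws turned the sign (-0.16, -0.20 and -0.38) and relative to the median gene it was 0.39 and not called. No direction is read from it. Stat5b stood at 29.8 CPM in TCR-stimulated, 30.4 in S100a4 effector, 25.5 in Ccl5 and 29.5 in resting cells. Its log2 ratios of 0.01, 0.04 and -0.21 had intervals that included 0, from -0.52 to 0.53, -0.36 to 0.45 and -0.95 to 0.47.

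**Figure D2:**
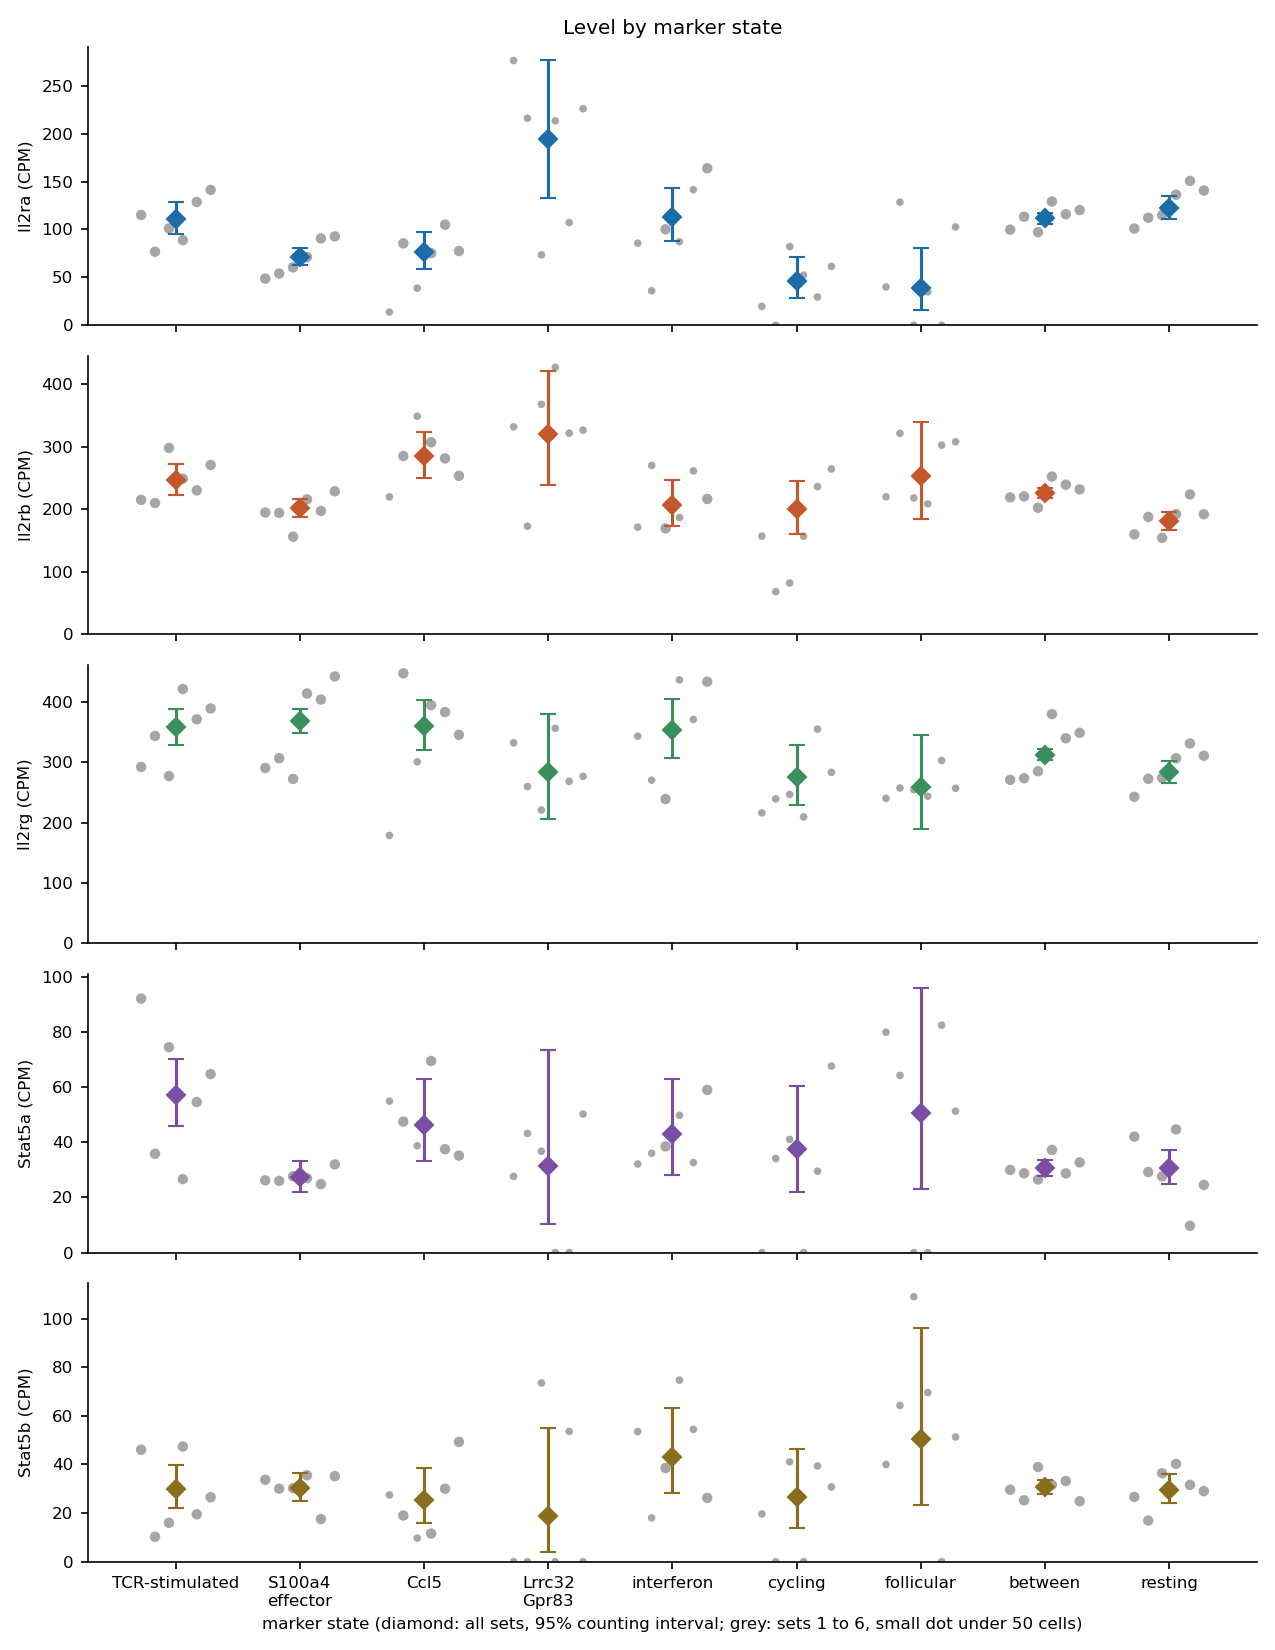
Level of each gene (CPM, vertical axes from 0) in 9 marker states, with resting cells at the right. Diamonds are all sets together with 95% counting intervals, and grey points are the 6 sets in order from 1 to 6, small where a set had under 50 cells of the state. Il2ra stands at 71.7 CPM in S100a4 effector cells and 122 in resting cells.

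**Figure D3:**
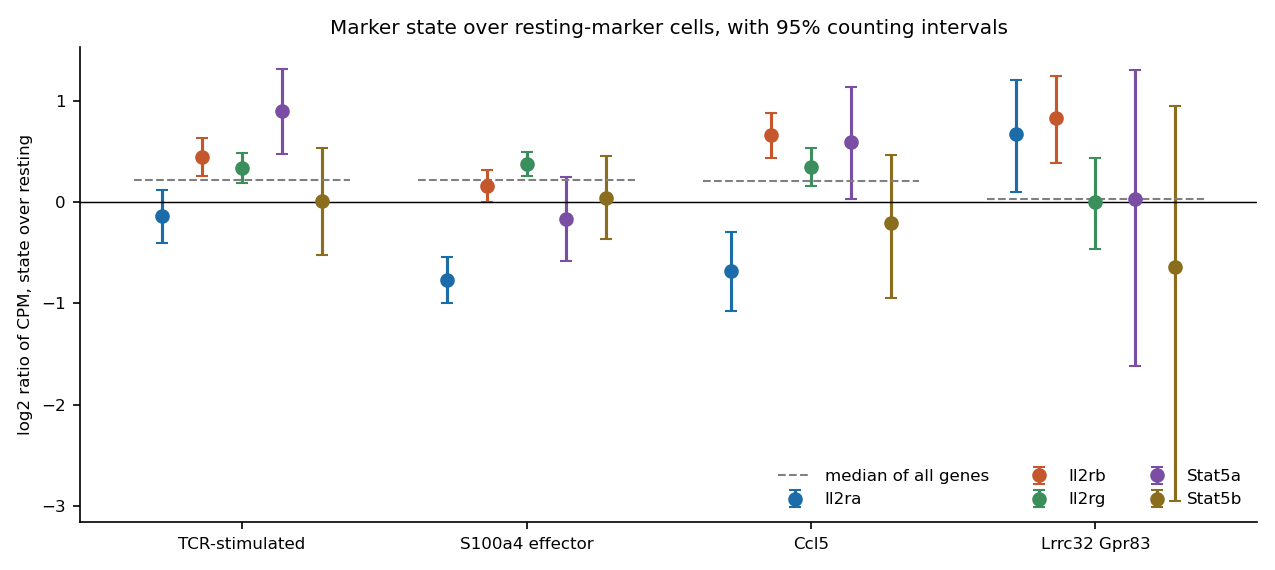
The log2 ratio of CPM in 4 marker states over resting cells for each gene, with 95% counting intervals and, as dashed lines, the median of all genes measured. Il2ra lies below 0 in S100a4 effector (-0.77) and Ccl5 cells (-0.67), and Il2rb above 0 in Ccl5 cells (0.66).

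In single cells, detection of 1 receptor chain's RNA differed by less than counting error between cells with and without a UMI of another chain. Il2rb had a UMI in 18.7% of the 929 Treg cells with an Il2ra UMI (16.3 to 21.4%) and in 19.7% of the 9268 without one (18.9 to 20.6%), all thinned to 1000 UMIs. Il2rg had a UMI in 26.8% of cells with an Il2ra UMI (24.0 to 29.8%) and in 28.4% of those without (27.5 to 29.3%). Il2rg had one in 27.4% of cells with an Il2rb UMI (25.4 to 29.4%) and in 28.5% of those without (27.5 to 29.5%). The intervals overlapped in each pair. A UMI of all 3 chains was seen in 48 cells (0.47%), of 2 chains in 827 (8.11%), of 1 chain in 4014 (39.4%) and of 0 chains in 5308 (52.1%), so most cells without a UMI of a chain cannot be told from cells that lack its RNA at this depth. Stat5a and Stat5b had a UMI together in 7 cells, and Stat5b was found in 2.28% of cells with a Stat5a UMI (0.92 to 4.64%) and in 2.87% of those without (2.55 to 3.22%).

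**Figure D4:**
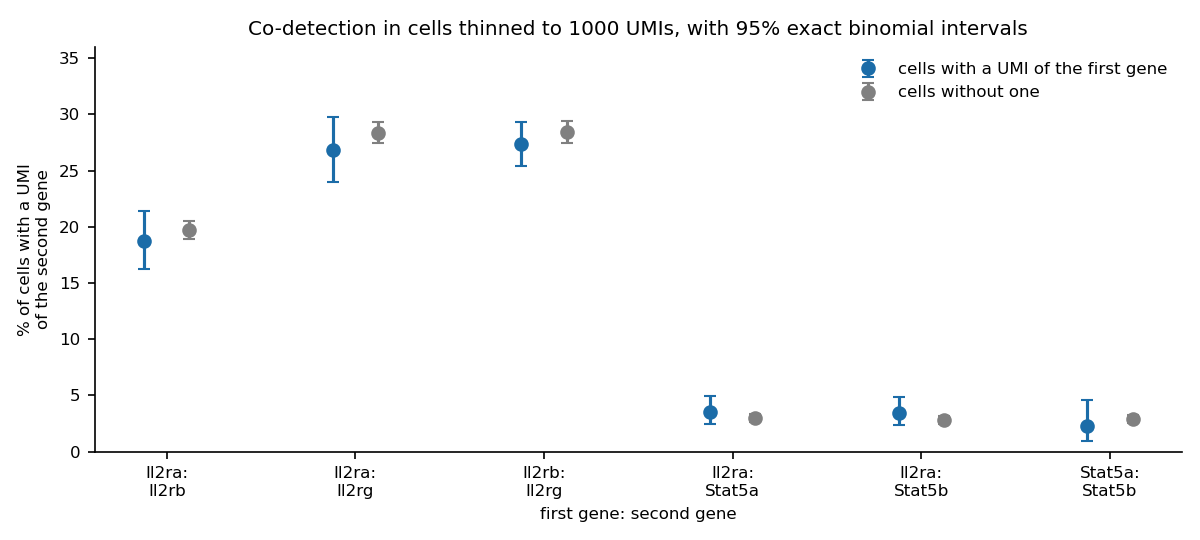
Share of Treg cells with a UMI of the second gene (vertical axis, %) among cells with a UMI of the first gene (blue) and cells without one (grey), all thinned to 1000 UMIs, with exact 95% binomial intervals. Each blue interval overlaps its grey one, as for Il2rb in 18.7% of cells with and 19.7% of cells without an Il2ra UMI.

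Other genes of the IL-2 pathway were compared between cells with more and fewer Il2ra UMIs, using 63 genes in 7 lists (ligands, other gamma chain receptors, receptor kinases and adaptors, other STAT genes, inhibitors, induced targets and repressed targets). Cells with at least 2 Il2ra UMIs after thinning (94 cells) were set against cells with 0 (9268 cells). Levels were read from unthinned UMIs, of which the cells with 0 still held 1273 of 2589 for Il2ra. That was 57.0 CPM, against 1131 in the 94 cells, so cells with 0 are not cells that lack Il2ra RNA. Of 47 genes measured, 3 were called higher and 0 lower, where 0.658% of 6230 genes were called higher and 3.29% lower. The 3 were all induced targets, of which 17 were measured. The median log2 ratio over the 47 genes was 0.23, and over all genes it was -0.03.

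Lta, which encodes the cytokine lymphotoxin alpha, stood at 214 CPM in cells with at least 2 Il2ra UMIs (160 to 282, from 51 UMIs), against 52.9 in cells with 0, a log2 ratio of 2.02 (1.59 to 2.42). Bcl2, which encodes a survival factor, stood at 723 CPM against 356, a log2 ratio of 1.02 (0.80 to 1.24), and the growth regulator Myc at 88.3 CPM against 44.0, a ratio of 1.0 (0.30 to 1.62). Each was higher in 6 of 6 sets. The 94 cells changed with the thinning draw, and over 6 draws the ratio ran from 1.09 to 2.31 for Lta, from 0.59 to 1.36 for Bcl2 and from 0.03 to 1.77 for Myc. The count called higher ran from 0 to 4 over the 5 other draws, was 6 without set 1 and 5 without set 2. Which genes pass the rule therefore is not firm, and Lta kept a log2 ratio above 1 in each of the 6 draws.

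The remaining lists had 0 members called at this limit. Among inhibitors of cytokine signalling, Socs2 stood at 168 CPM in cells with at least 2 Il2ra UMIs and 54.4 in cells with 0, a log2 ratio of 1.63 (1.14 to 2.08), higher in 5 of 6 sets, and 1.02 to 1.67 over 6 draws. Cish, a known STAT5 target, was at 0.71 (0.26 to 1.12) in 4 of 6 sets, and Socs3 at 0.37. Of the other gamma chain receptors, the IL-4 receptor gene Il4ra was at 1.3 (5 of 6 sets), the highest of 6 draws, the lowest of which was 0.21, Il15ra at 0.57, Il21r at 0.24 and Il7r at -0.27. Among kinases and adaptors, Pik3r1 was at 0.65, Pik3cd at 0.55, Jak1 at 0.39 and Jak3 at 0.39. Of the other STAT genes, Stat6 was at 0.52, Stat4 at 0.36 and Stat3 at -0.31. The signs for Stat6, Stat4, Stat3, Jak3, Il15ra, Il21r and Socs3 turned over the 6 draws. Foxp3, an induced target by this list, was at 1.28 (0.32 to 2.10, from 12 UMIs), higher in 4 of 6 sets and 0.05 to 1.28 over draws. Of the repressed targets, Tcf7 was at -0.11, Il6ra at -0.16 and Il6st, from 4 UMIs, at -0.81. Over 6 draws Tcf7 ran from -0.11 to 0.45, Il6ra from -0.44 to 0.41 and Il6st from -0.81 to 0.50. No direction is read for these targets. Of the 6 ligand genes 0 passed the limit on UMIs, and Il2 itself had 3 UMIs in the 94 cells and 195 in the cells with 0.

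With a limit of at least 1 Il2ra UMI (929 cells), the groups were larger. Socs2 stood at 96.4 CPM in these cells and 54.4 in cells with 0, a log2 ratio of 0.83 (0.62 to 1.03), and Il4ra at 65.3 and 42.3 CPM, a ratio of 0.62 (0.37 to 0.87), both higher in 6 of 6 sets, where 0.292% of genes were called higher and 1.3% lower. Over 6 draws Socs2 ran from 0.67 to 0.90 and Il4ra from 0.18 to 0.62. Bcl2 (0.49) and Cish (0.39) were higher in 6 of 6 sets and below 1.5-fold. Lta (0.74) and Myc (0.80) were higher in 5 of 6. Il9r (-1.06, from 8 UMIs) and Bcl6 (-0.92, from 6 UMIs) were lower in 6 of 6 sets, the interval for Bcl6 (-2.40 to 0.25) including 0. Over 6 draws Il9r ran from -1.52 to -0.36 and Bcl6 from -1.19 to 0.31, so no direction is read for Bcl6. Lrrc32, named after its value was seen, was at 0.64 and higher in 6 of 6 sets. The other members had ratios of 0.08 for Il2rb (-0.05 to 0.21), 0.02 for Il2rg (-0.09 to 0.13), 0.02 for Stat5a (-0.34 to 0.36) and 0.30 for Stat5b (-0.05 to 0.62), each with an interval that included 0. Median depth was 2113 UMIs in cells with 0, 2279 with 1 and 2363 with at least 2 Il2ra UMIs, and its part in these ratios was not tested.

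**Figure D5:**
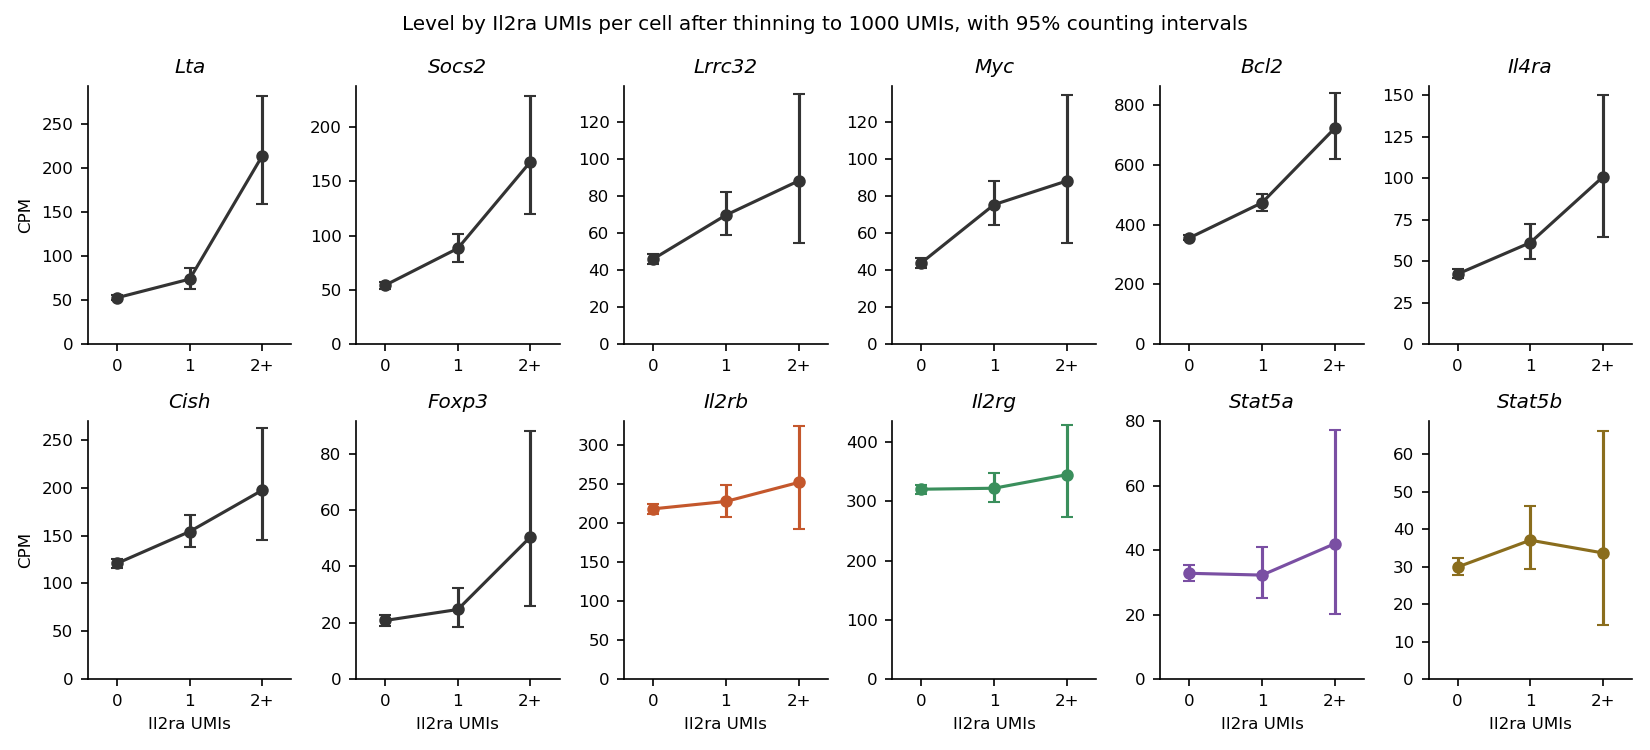
Level of 12 genes (CPM, vertical axes from 0) in Treg cells with 0, 1 and at least 2 Il2ra UMIs after thinning to 1000 UMIs, with 95% counting intervals and lines joining the groups. Socs2 stands at 54.4, 88.3 and 168 CPM, while Il2rg stands at 320.3, 322 and 345 CPM.

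Across the marker states, the same lists held calls in both directions. In S100a4 effector cells, 6 of 42 measured genes were called higher and 4 lower, where 9.1% and 1.07% of all genes were. Il7r, the IL-7 receptor gene, stood at 265 CPM in S100a4 effector and 119 in resting cells (log2 ratio 1.16), while Il4ra (-0.81), Bcl2 (-1.57), Socs3 (-0.66) and the gp130 gene Il6st (-0.96) were lower. Relative to the median gene, 3 were called higher and 7 lower, where 3.99% and 3.54% of all genes were. The median log2 ratio was 0.12 over the 42 genes and 0.22 over all genes. In Ccl5 cells, 5 of 35 were called higher and 5 lower, where 7.23% and 2.16% of all genes were, and relative to the median gene 5 and 7, where 4.05% and 4.88% were. There Il7r was at 0.86, Jak3, the kinase that binds the gamma chain, at 1.41 (62.6 against 23.5 CPM in resting cells), and Il4ra at -0.79, Bcl2 at -1.24 and Socs3 at -1.04. Il4ra and Bcl2 were thus lower in S100a4 effector and in Ccl5 cells, as Il2ra was. The induced targets Icos (1.65 and 1.86), Tnfrsf4 (0.75 and 1.36) and Capg (0.94 and 0.84) went the other way in these states. The other calls were Grb2 (0.60) and Swap70 (0.63), higher in S100a4 effector cells, and Myc (-1.58) and Il6ra (-2.04), lower in Ccl5 cells. Relative to the median gene, Tnfrsf4 (0.53), Swap70 (0.41) and Grb2 (0.37) lost the call in S100a4 effector cells. By that measure Lta (-0.60), Il6ra (-0.89) and Tcf7 (-0.79) were called lower there, and Pik3r1 (-1.02) and Tcf7 (-1.13) in Ccl5 cells. The induced targets therefore did not share 1 direction in either state.

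In TCR-stimulated cells, 7 of 38 measured genes were called higher and 6 lower, where 11.8% and 3.09% of all genes were. In these cells the 8 myeloid markers, all detected, summed to 199 CPM (144 to 256 over the sets), against 130 in resting cells, and ribosomal protein genes took 30.5% of UMIs, against 38.7%. Their part in these calls was not tested. Tnfrsf4, which encodes OX40 (2.31), Bcl2l1, which encodes the survival factor Bcl-xL (2.04), the costimulatory receptor gene Icos (1.39), Jak3 (1.18), Myc (1.06), Swap70 (1.02) and the phosphatase gene Ptpn6 (0.60) were higher. Relative to the median gene, Jak3, Myc and Ptpn6 lost the call, which left 4 higher and 6 lower, where 6.18% and 6.61% of all genes were. Socs3 (-1.64), Il6ra (-1.56), Bcl2 (-1.14), Pik3r1 (-0.74), Socs2 (-0.67) and Tcf7 (-0.60) were lower. Socs3, an inhibitor of cytokine receptor signalling, stood at 34.2, 67.5, 52.2 and 44.0 CPM in TCR-stimulated, S100a4 effector, Ccl5 and Lrrc32 Gpr83 cells, against 107 in resting cells, and was lower than in resting cells in 6 of 6 sets in each of these states. The Lrrc32 Gpr83 value rests on 7 UMIs.

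Cells were also grouped by UMIs of Bach2, the targeted gene, and of Foxp3, groupings added after the data were seen. At this depth a cell without a UMI of the gene cannot be told from a cell that lacks its RNA. Cells of cKO and WT samples could not be told apart within the groups. In 259 cells with a Bach2 UMI, Il2ra stood at 116 CPM, against 105 in 9938 cells without one, a log2 ratio of 0.14 (-0.20 to 0.47) that was higher in 4 of 6 sets. The other members had ratios of 0.07 for Il2rb, -0.20 for Il2rg, -0.08 for Stat5a and 0.16 for Stat5b, and 0 of 5 members were called, where 0.539% of genes were called higher and 2.36% lower. In 219 cells with a Foxp3 UMI, Il2ra stood at 155 CPM, against 104 in 9978 cells without one, a log2 ratio of 0.57 (0.23 to 0.90), higher in 5 of 6 sets and not called, where 0.493% of genes were called higher and 1.86% lower. Il2rb was at -0.11 and Il2rg at -0.15 in the same comparison.

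Across 30 combinations of 6 states and the sets, each with at least 50 cells, Il2ra levels were most like those of Rgs10, a regulator of G protein signalling (Pearson r 0.83), followed by Lta (0.75), Chchd10 (0.74), Fam169b (0.71), Bach2 (0.68) and Ift80 (0.66), out of 4803 genes compared on log2(CPM + 10). The least alike were Gmfg (-0.69), Cldnd1 (-0.69), Slbp (-0.68) and Anxa2 (-0.68). With the other members, Il2ra had r of 0.10 for Il2rb, 0.07 for Il2rg, 0.16 for Stat5a and 0.04 for Stat5b, whereas Il2rb and Il2rg had 0.61. The combinations share libraries, depth and the markers that define states, so these values describe the table only. The genes most like the other members were Ifi27, Btg1 and Sec61g for Il2rb (0.85 to 0.78), Maz, Atp5k and Ndufa13 for Il2rg (0.81 to 0.79), Nol10, Zbtb1 and Snw1 for Stat5a (0.74 to 0.68) and Me2, Pcbp2 and Rbm6 for Stat5b (0.67 to 0.59).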

How the data were processed

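The deposited count table held whole UMI counts per gene and cell, 25389602 UMIs in all and 507 to 22130 per cell. A further deposited table held natural log values, ln(1 + 10000 × count / cell total), computed by the authors for 10464 cells, and served only as an alternative choice of cells. The submitters' processing notes name mm10 and list Seurat, Cell Ranger, HISAT2, cutadapt and FastQC. Versions are not given in the sources used here. Libraries were Chromium 3′ v2, per the labels' protocols, which also list bulk RNA steps whose bearing on these libraries is not stated. The 10685 cell columns carried no name that tied them to a sample, so cKO and WT were not compared.

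Of these, 10680 had 200 or more genes detected and less than 10% of UMIs from mitochondrial genes, and were kept. Each was thinned to 1000 UMIs without replacement (seed 1), and 315 shallower cells were left out. Cells with at least 2 detected markers of B, myeloid, CD8 T or NK cells, or over 5% erythroid UMIs, were removed (168). A state needed at least 2 detected markers and a z score of at least 1, the largest z deciding. No doublet caller was run. Unthinned UMIs were then summed per state, giving CPM with exact Poisson intervals, shares with Clopper-Pearson intervals and ratios with exact conditional binomial intervals (Python 3.11.15, scipy 1.17.1, numpy 2.4.6, pandas 2.3.3, matplotlib 3.10.9). A gene was measured with at least 100 UMIs over both groups and a pooled level worth at least 3 UMIs in the smaller group, and called at 1.5-fold with 1 direction in 6 of 6 sets. The call rule, without the limit in the smaller group, was run on simulated Poisson counts. These had the sizes of the S100a4 effector and resting groups and no added spread between sets. The Il2ra UMI groups were not simulated. Named genes were the 5 members, members of the lists, the 4 members of each list with the highest ratio by Il2ra UMIs, and for likeness the 6 highest and 4 lowest genes for Il2ra and the 3 highest for each other member. Some genes that this rule or the state markers include are not reported here, though the counts cover them.

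Members, lists and state markers were chosen with earlier results of these data known. The z limit was set after the files were seen. The call rule was changed after its first calls were seen. The first rule added 0.5 UMIs to each group of a set and had no limit in the smaller group. It called 7 of 56 pathway genes higher and 0 lower by Il2ra UMIs, but also 7.34% of all genes higher and 0.295% lower, an asymmetry towards the smaller group. The rule used here leans the other way for all genes (0.658% higher and 3.29% lower). A 14-cell state led by Tmem176 and Ccr6 was left out of the comparisons after its size was seen.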

Additional observations from a re-analysis of the deposited data

How the results depend on the processing

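Of 521 recomputed values, 479 stayed within the counting interval or, for counts, within 1.5 times, 34 moved and 8 turned the sign of a ratio whose interval excluded 0. Some ratios with an interval that included 0 also changed sign. The sign held under every alternative run for Il2ra in S100a4 effector (-0.99 to -0.53, the latter with thinning seed 3) and Ccl5 cells (-0.89 to -0.37). In TCR-stimulated cells Il2ra was 0.39 with 3 markers and 0.38 with thinning to 500 UMIs, and in Lrrc32 Gpr83 cells 1.23 with seed 6. Stat5a in Ccl5 cells was -0.22 with 3 markers, -0.47 at 500 UMIs, 0.0011 without thinning, and -0.16, -0.20 and -0.38 with seeds 2, 5 and 6. Il2rb in S100a4 effector cells was 0.34 with 3 markers, -0.040 without ribosomal and mitochondrial genes, -0.061 relative to the median gene and -0.041 at 1500 UMIs. Il2rb was 0.92 in Ccl5 cells with 3 markers and 0.23 in TCR-stimulated cells relative to the median gene. With 3 markers, Il2rg was 0.56 in Ccl5 and 0.52 in TCR-stimulated cells, and Stat5b -2.18 in Ccl5 and -0.37 in S100a4 effector cells. Without ribosomal and mitochondrial genes, Il2rg was 0.13 in Ccl5, 0.18 in S100a4 effector and 0.15 in TCR-stimulated cells. Relative to the median gene it was 0.14, 0.15 and 0.12, and in Ccl5 cells with seed 4 it was 0.63. The median of the sets' own ratios for Stat5b in Lrrc32 Gpr83 cells was -3.78. Without ribosomal and mitochondrial genes, the spread between sets (log2, highest over lowest) was 0.14 for Il2rb and 0.38 for Il2rg.

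The number of pathway genes called higher by Il2ra UMIs was 5 without thinning, 1 at 500 UMIs and 0 with seed 3, and 3 to 6 when a set was left out. The number called lower was 2 with at least 1 Il2ra UMI, 3 without thinning, 2 at 1500 UMIs, 1 at 500 UMIs, 1 with seed 2 and 1 with seed 6, and 0 to 1 when a set was left out. The cause of these shifts was not tested. Leaving out set 1 or 2 gave 6 or 5 genes called higher. Without cells whose barcode occurs in more than 1 set (119 Treg cells), 2 were called higher. Alternatives relative to the median gene and without shared barcodes were chosen after seeing the data. Depth limits values such as Il2ra in follicular cells (7 UMIs), Il2ra in cycling cells (21 UMIs) and Stat5a in Ccl5 cells (40 UMIs). States were compared within each barcode set. No paired analysis was possible because the cell columns carry no replicate number that could pair cKO with WT samples.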

Other observations

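By point value, the levels of all 3 receptor chains in the 6 barcode sets fell into 2 ranges, which those of Stat5a and Stat5b did not. The share of all genes that split between the same sets was not counted, so the split is not read as a trait of the receptor chains. Il2ra stood at 93.2, 101 and 94.6 CPM in sets 1, 2 and 3 and 111, 112 and 119 CPM in sets 4, 5 and 6. Il2rb stood at 206, 212 and 197 CPM and then 238, 234 and 233 CPM, and Il2rg at 269, 286 and 279 CPM in sets 1, 2 and 3 and 380.0, 355 and 361 CPM in sets 4, 5 and 6. The counting intervals of the nearest sets overlapped for Il2ra (91.5 to 112 in set 2 and 101 to 122 in set 4). They also overlapped for Il2rb (198 to 227 in set 2 and 218 to 248 in set 6). For Il2rg they lay apart (269 to 304 in set 2 and 337 to 375 in set 5). Ribosomal protein genes took 36.8, 36.7 and 37.7% and then 31.6, 31.7 and 32.2% of UMIs in the same sets. Without ribosomal protein and mitochondrial genes in the totals, Il2rg stood at 439, 465, 461, 571, 534 and 547 CPM in sets 1 to 6, Il2ra at 152, 165, 156, 167, 169 and 181 CPM and Il2rb at 335, 345, 325, 357, 351 and 353 CPM. The nearest sets then stood at 165 and 167 CPM for Il2ra (sets 2 and 4) and at 345 and 351 CPM for Il2rb (sets 2 and 5). No label ties a set to a genotype or a batch, and the difference between these ranges was not tested.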
